A study of Homo sapiens with 6 samples.

Results

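A set of 10 genes of the endoplasmic reticulum (ER) stress response was followed in RKO cells, an established human colorectal cancer line, after knockdown of TRMT6. They were chosen by symbol from the 20289 genes of the deposited table: HSPA5, HSP90B1, DNAJB9, DNAJC3, HERPUD1, XBP1, ATF6, ERN1, SDF2L1 and HYOU1. All 10 were found by Ensembl identifier, and all 10 were abundant enough to be tested. Cells carrying a short hairpin RNA against TRMT6 (shTRMT6, 3 libraries) were compared with cells carrying a control hairpin (shControl, 3 libraries), so every library comes from hairpin-bearing cells. The hairpin sequences, and whether the cells were pools or clones, are not given in the sources used here. TRMT6 is a subunit of the tRNA methyltransferase that makes 1-methyladenosine, and the comparison asks which mRNAs change when it is reduced.

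The ER folds secreted and membrane proteins, and the unfolded protein response matches its folding capacity to the load. Unfolded protein is sensed by membrane proteins, among them IRE1 (encoded by ERN1) and ATF6. IRE1 excises a short stretch from the XBP1 mRNA, which shifts the reading frame to give an active transcription factor, while ATF6 moves to the Golgi and is cut there by the site-1 and site-2 proteases to release its own transcription factor domain. Both factors switch on chaperones such as HSPA5 (BiP), their cochaperones, and genes of ER-associated degradation such as HERPUD1. High levels of the chaperones without acute stress are usual in secretory and in many cancer cells.

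TRMT6 read 1.58, 1.73 and 1.09 FPKM in the shTRMT6 libraries, against 14.43, 17.96 and 16.85 FPKM in the shControl libraries (FPKM, a fragment count adjusted for the gene's length and the depth of the library), 11.2-fold lower (limma adjusted p = 4.33e-08). Estimated depth was 18.2 to 20.2 M fragments in shTRMT6 and 20.3 to 28.7 M in shControl, a rough estimate from the steps between low values. Of the epithelial markers, KRT18, KRT8, EPCAM and CDX2 were detected, and 5 of the 10 (KRT19, KRT20, CDH1, VIL1 and CDH17) were listed at 0 in all 6 libraries. KRT18 and EPCAM rose (limma adjusted p = 0.00053 and 0.0282), while KRT8 and CDX2 did not pass (limma adjusted p = 0.687 and 0.811). The summed epithelial marker level was 201 to 213.6 FPKM in shTRMT6 and 123.7 to 156.1 FPKM in shControl. Most of that sum was KRT18, which averaged 186.3 FPKM in shTRMT6 and 118.4 FPKM in shControl. The part of the marker level in the results was not tested. The 7 fibroblast and 4 endothelial markers stayed under 1 FPKM in every library, as did all 8 leukocyte markers but CD68, which read 738.4 to 996.4 FPKM in shTRMT6 and 677 to 810.5 FPKM in shControl. One control library stood apart: shControl replicate 1 deviated by 0.22 (log2) per 10 points of transcript GC content, against -0.15 to -0.025 in shTRMT6 and -0.0046 and 0.034 in the other controls. In 5 of the 10 genes (HSPA5, HSP90B1, ATF6, DNAJC3 and DNAJB9) that library held the lowest value of all 6. How often that holds over all genes was not counted.

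The 10 genes did not move together. DNAJC3 and HERPUD1 rose, HYOU1 and XBP1 fell, and the other 6 did not pass the test. In bulk RNA, fewer cells of a type and less RNA per cell cannot be told apart. The test was limma on log2(FPKM + 1), two-sided, with Benjamini-Hochberg adjustment over all 10592 genes tested and a threshold of 0.05, and every adjusted p comes from it. The 4 of 10 that passed (40%) compare with 35.4% of all genes tested (19.3% higher and 16.1% lower in shTRMT6). The median log2 fold change of the 10 genes was 0.13, against 0.024 for all genes tested, and their median absolute change was 0.29, against 0.24. The groups did not overlap for 5 of the 10 genes, where 48.3% of all genes showed no overlap. For each of those 5 an exact two-sided permutation test gave p = 0.1, the smallest that 3 libraries against 3 allow. With a replicate block, in which libraries of the same number are paired, 6 of the 10 passed, 4 higher and 2 lower, where 46.8% of all genes passed in that fit (25.5% higher and 21.3% lower). The labels do not say what a replicate number stands for. The pairing was taken from correlations in these same libraries, so the smaller p-values of that fit depend on it.

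**Figure D1:**
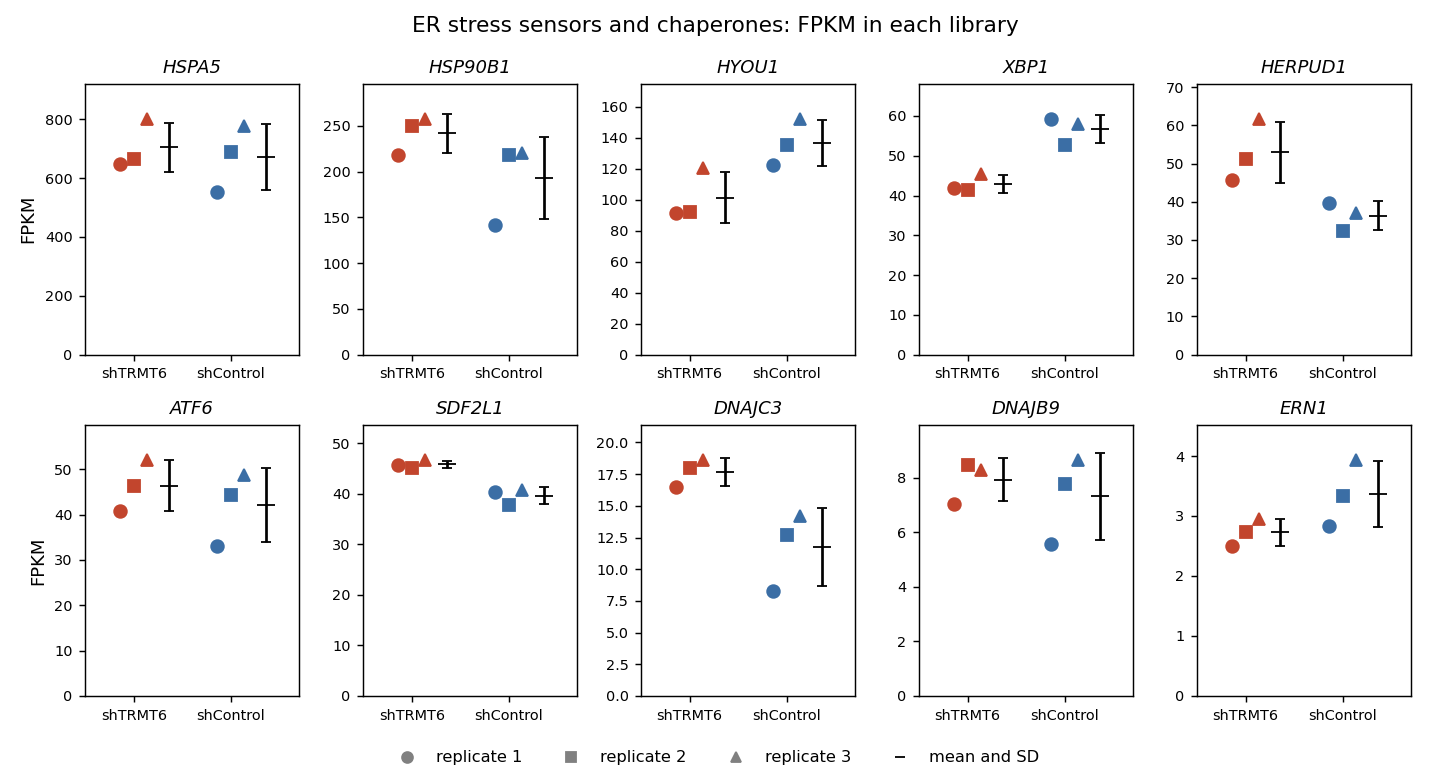
FPKM of each of the 10 genes (vertical axes, each from 0) in the 3 shTRMT6 libraries (red, left) and the 3 shControl libraries (blue, right), ordered by mean level; the marker shape gives the replicate number and the black bar the mean with SD. DNAJC3, HERPUD1 and SDF2L1 lie higher in every shTRMT6 library than in any shControl library, HYOU1 and XBP1 lie lower, and the other 5 genes overlap.

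The mean of HSPA5 over all libraries was 226-fold that of ERN1. HSPA5 was the most abundant, followed by HSP90B1 and HYOU1, and ERN1 was the least. In FPKM, which is per length, HSPA5 was above HSP90B1 in every library, and HYOU1 above XBP1 in every library. HERPUD1, ATF6 and SDF2L1 overlapped as neighbours in both groups, while HERPUD1 was above XBP1 in every shTRMT6 library and XBP1 above HERPUD1 in every shControl library. SDF2L1 was above DNAJC3, and DNAJB9 above ERN1, in every library. HSP90B1 and HYOU1 overlapped over the 6 libraries through the low HSP90B1 value of shControl replicate 1, and within shTRMT6 they did not overlap.

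The sensors themselves did not pass the test. ERN1 (ENSG00000178607; chromosome 17, bases 64039142 to 64130819, minus strand, GENCODE release 29 on GRCh38) read 2.50, 2.74 and 2.95 FPKM in shTRMT6, against 2.84, 3.34 and 3.93 FPKM in shControl. The groups overlapped, and the log2 fold change was -0.22 (SE 0.13, adjusted p = 0.201). ATF6 (ENSG00000118217; chromosome 1, bases 161766294 to 161964070, plus strand) read 40.74, 46.28 and 52.02 FPKM in shTRMT6 and 33.17, 44.42 and 48.83 FPKM in shControl. Its log2 fold change was 0.15 (SE 0.14, adjusted p = 0.432), and it was -0.014 without shControl replicate 1, the lowest ATF6 value of the 6. The kinase PERK (EIF2AK3), the remaining sensor, averaged 3.57 ± 0.268 FPKM in shTRMT6 and 3.35 ± 0.927 FPKM in shControl (SD, n = 3 each), a log2 fold change of 0.09 that did not pass (limma adjusted p = 0.67).

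XBP1 (ENSG00000100219; chromosome 22, bases 28794555 to 28800597, minus strand), the transcription factor of the IRE1 branch, fell. It read 41.99, 41.35 and 45.41 FPKM in the shTRMT6 libraries, against 59.24, 52.78 and 58.06 FPKM in the shControl libraries. Every shTRMT6 value lay below every shControl value. The mean was 42.9 ± 2.18 FPKM in shTRMT6 and 56.7 ± 3.44 FPKM in shControl (SD, n = 3 each), 1.32-fold lower, with a log2 fold change of -0.39 (SE 0.09, limma adjusted p = 0.0065). The call held under all 17 alternatives, with log2 fold changes from -0.44 to -0.36 and adjusted p from 0.000251 to 0.0371.

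The deposited values are 1 number per gene and do not separate XBP1 mRNA before and after IRE1 has acted on it. The stretch that IRE1 removes is printed here because it is what such a measurement would need to resolve: 26 bases, in capitals, with 20 bases on either side, from the coding region in GENCODE release 29. Of 7 annotated XBP1 transcripts 4 hold these bases, 2 lack them and 1 covers neither form. The ends repeat, so 7 placements give the same spliced product, and the one shown has C, any base, G on both sides of each cut.
XBP1 IRE1 site: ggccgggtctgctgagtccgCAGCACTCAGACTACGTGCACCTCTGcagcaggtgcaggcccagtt

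HSPA5 (ENSG00000044574; chromosome 9, bases 125234853 to 125241330, minus strand), the main HSP70 chaperone of the ER lumen and the usual readout of ER stress, did not pass the test. It read 648.34, 664.96 and 800.80 FPKM in shTRMT6, against 554.00, 687.02 and 776.69 FPKM in shControl. The 2 groups covered much the same range, with a mean of 704.7 ± 83.6 FPKM in shTRMT6 and 672.6 ± 112 FPKM in shControl (SD, n = 3 each). On the log2 scale the difference was 0.07 (SE 0.12, adjusted p = 0.673). Its sign turned to -0.058 without shControl replicate 1, to -0.021 without shTRMT6 replicate 3, to -0.063 with quantile normalization and to -0.016 after a correction for GC content. Of the windows of 75 bases in the HSPA5 transcript, 4.15% also occur in other annotated transcripts.

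HSP90B1 (ENSG00000166598; chromosome 12, bases 103930107 to 103953645, plus strand), the HSP90 chaperone of the ER also called GRP94, read 217.68, 249.79 and 257.44 FPKM in shTRMT6, against 141.47, 217.59 and 219.99 FPKM in shControl. The lowest shTRMT6 value lay between the 2 higher shControl values, so the groups overlapped. The log2 fold change was 0.35 (SE 0.15, adjusted p = 0.0799), which did not pass, and it was 0.14 without shControl replicate 1 (adjusted p = 0.247). Without shControl replicate 2 or 3 it was 0.45 or 0.46 and passed (adjusted p = 0.0374 and 0.0265). With the replicate block the adjusted p was 0.000593, and with the GC correction as well the log2 fold change was 0.15 (adjusted p = 0.0347).

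HYOU1 (ENSG00000149428; chromosome 11, bases 119044189 to 119057202, minus strand), an ER member of the HSP110 family that exchanges nucleotide on HSPA5, fell. It read 91.56, 91.84 and 120.34 FPKM in shTRMT6, against 122.35, 135.49 and 152.07 FPKM in shControl. Each shTRMT6 library was below each shControl library, but the highest shTRMT6 value came close to the lowest shControl value. The mean was 1.35-fold lower, with a log2 fold change of -0.44 (SE 0.12, adjusted p = 0.0137). The call ended after the GC correction (-0.32, adjusted p = 0.0644; 0.000664 with the replicate block as well), when all genes were tested without the low-value filter (adjusted p = 0.0611), and without shTRMT6 replicate 1 (0.0705) or replicate 2 (0.0593). An antisense gene, AP003392.3, covers 8.66% of the exon bases of HYOU1, and the strand setting of the counting is not given in the sources used here.

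Among the cochaperones DNAJC3 rose. DNAJC3 (ENSG00000102580; chromosome 13, bases 95677139 to 95794989, plus strand), a J-domain partner of HSPA5 first described as an inhibitor of the kinases PKR and PERK, read 16.47, 17.99 and 18.60 FPKM in shTRMT6, against 8.30, 12.71 and 14.21 FPKM in shControl. All shTRMT6 libraries were above all shControl libraries, and shControl replicate 1 was far below the rest. The mean was 17.7 ± 1.10 FPKM in shTRMT6 and 11.7 ± 3.07 FPKM in shControl (SD, n = 3 each), a ratio of 1.51. The log2 fold change was 0.58 (SE 0.16, adjusted p = 0.0114); without shControl replicate 1 it was 0.37 (adjusted p = 0.0173), and with the GC correction 0.35 (adjusted p = 0.0456). With no filter on abundance the adjusted p was 0.0693, and the call ended.

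DNAJB9 (ENSG00000128590; chromosome 7, bases 108569568 to 108574850, plus strand), the J-domain protein also called ERdj4 that helps HSPA5 hold IRE1 inactive, did not pass. It read 7.05, 8.47 and 8.28 FPKM in shTRMT6, against 5.55, 7.76 and 8.64 FPKM in shControl. The groups overlapped (log2 fold change 0.12, SE 0.14, adjusted p = 0.553), and the sign turned to -0.044 without shControl replicate 1. Exons of THAP5 and PNPLA8 on the other strand cover 6.45% and 3.49% of its exon bases.

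SDF2L1 (ENSG00000128228; chromosome 22, bases 21642261 to 21644298, plus strand), a small soluble ER protein that works with the HSPA5 cochaperone DNAJB11, was the least variable of the 10 within groups. It read 45.65, 45.09 and 46.63 FPKM in shTRMT6, against 40.30, 37.79 and 40.80 FPKM in shControl. The groups did not overlap, but the ratio of means was 1.16 and the log2 fold change of 0.20 (SE 0.09) did not pass (adjusted p = 0.0949). It passed with the replicate block (adjusted p = 0.0489) and with the GC correction (0.36, adjusted p = 0.00762, and 0.000814 with the block as well). At 65.5% GC its transcript was the most GC-rich of the 10, and the 588 tested genes within 2 points of that content had a median log2 fold change of -0.16.

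HERPUD1 (ENSG00000051108; chromosome 16, bases 56932048 to 56944863, plus strand), an ER membrane protein of the degradation machinery that is strongly induced by ER stress, rose. It read 45.77, 51.25 and 61.67 FPKM in shTRMT6, against 39.77, 32.42 and 37.00 FPKM in shControl. Every shTRMT6 library was higher than every shControl library, and here shControl replicate 1 was the highest control. The mean was 52.9 ± 8.08 FPKM in shTRMT6 and 36.4 ± 3.71 FPKM in shControl (SD, n = 3 each), a ratio of 1.45. On the log2 scale the difference was 0.52 (SE 0.12, adjusted p = 0.00513), and it passed under all 17 alternatives, with values from 0.41 to 0.62 and adjusted p from 2.08e-05 to 0.032.

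**Figure D2:**
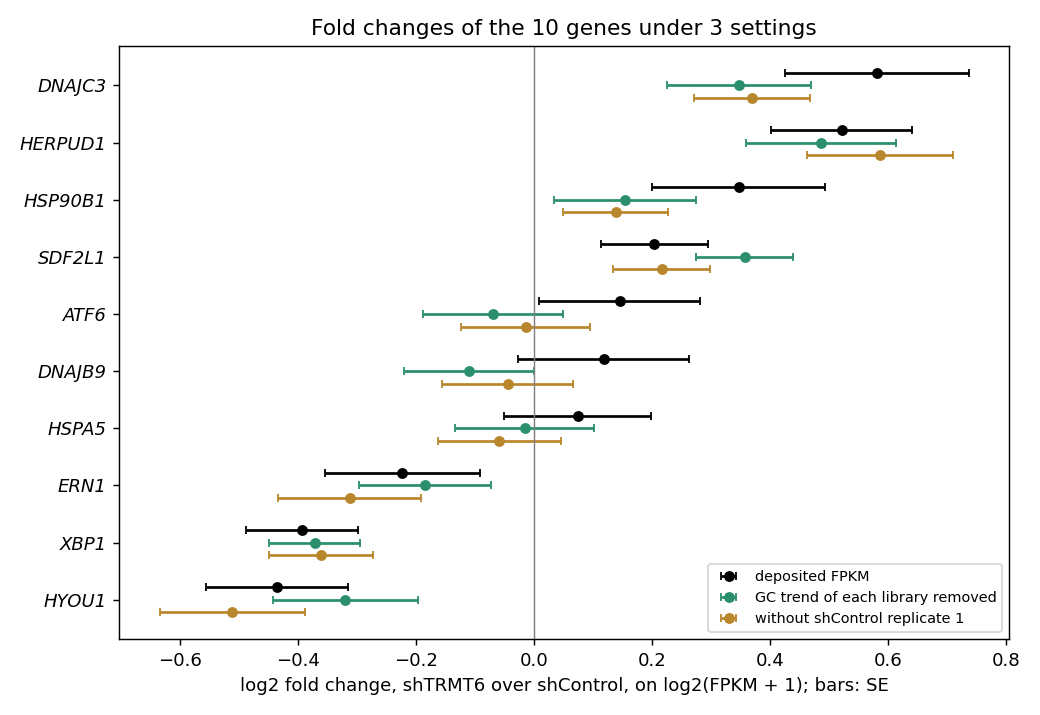
Log2 fold change of shTRMT6 over shControl on log2(FPKM + 1) for the 10 genes (horizontal axis; bars are the SE) from the deposited FPKM (black), after removal of each library's trend on GC content (green) and without shControl replicate 1 (ochre). HERPUD1 at 0.52, 0.49 and 0.59 and XBP1 at -0.39, -0.37 and -0.36 change little, whereas HSPA5, ATF6 and DNAJB9 change sign.

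The GC content of the transcripts ran from 39.9% in DNAJC3 to 65.5% in SDF2L1. The 4 genes below 43% GC were DNAJC3, DNAJB9, ATF6 and HSP90B1, and the tested genes within 2 points of each had medians from 0.19 to 0.24. Of these 4, the log2 fold change of DNAJC3 (0.58) and of HSP90B1 (0.35) lay above that median, and those of DNAJB9 (0.12) and ATF6 (0.15) lay below it. HERPUD1, at 47.9% GC, stood at 0.52 beside a median of 0.035. XBP1, at 50.1% GC, stood at -0.39 beside -0.020, and HYOU1, at 55.2% GC, at -0.44 beside -0.11.

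Levels relative to HSPA5 in the same library do not depend on the scaling of that library. They keep the GC trend of a library where a gene and HSPA5 differ in GC content. These ratios were chosen after the values were seen and are a description without a test. How many of all genes do not overlap on this scale was not counted, and in FPKM it was 48.3%. HYOU1 was 14.1%, 13.8% and 15.0% of HSPA5 in shTRMT6, against 22.1%, 19.7% and 19.6% in shControl. XBP1 was 6.48%, 6.22% and 5.67% of HSPA5 in shTRMT6, against 10.7%, 7.68% and 7.48% in shControl. For both, all shTRMT6 libraries were below all shControl libraries. DNAJC3 was 2.54%, 2.71% and 2.32% of HSPA5 in shTRMT6, against 1.5%, 1.85% and 1.83% in shControl, with no overlap. ERN1, which overlapped in FPKM, did not overlap on this scale (0.386%, 0.412% and 0.368% in shTRMT6, against 0.513%, 0.486% and 0.506% in shControl). HERPUD1 overlapped on this scale, with 7.06%, 7.71% and 7.70% in shTRMT6, against 7.18%, 4.72% and 4.76% in shControl, where replicate 1 was again the library apart.

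**Figure D3:**
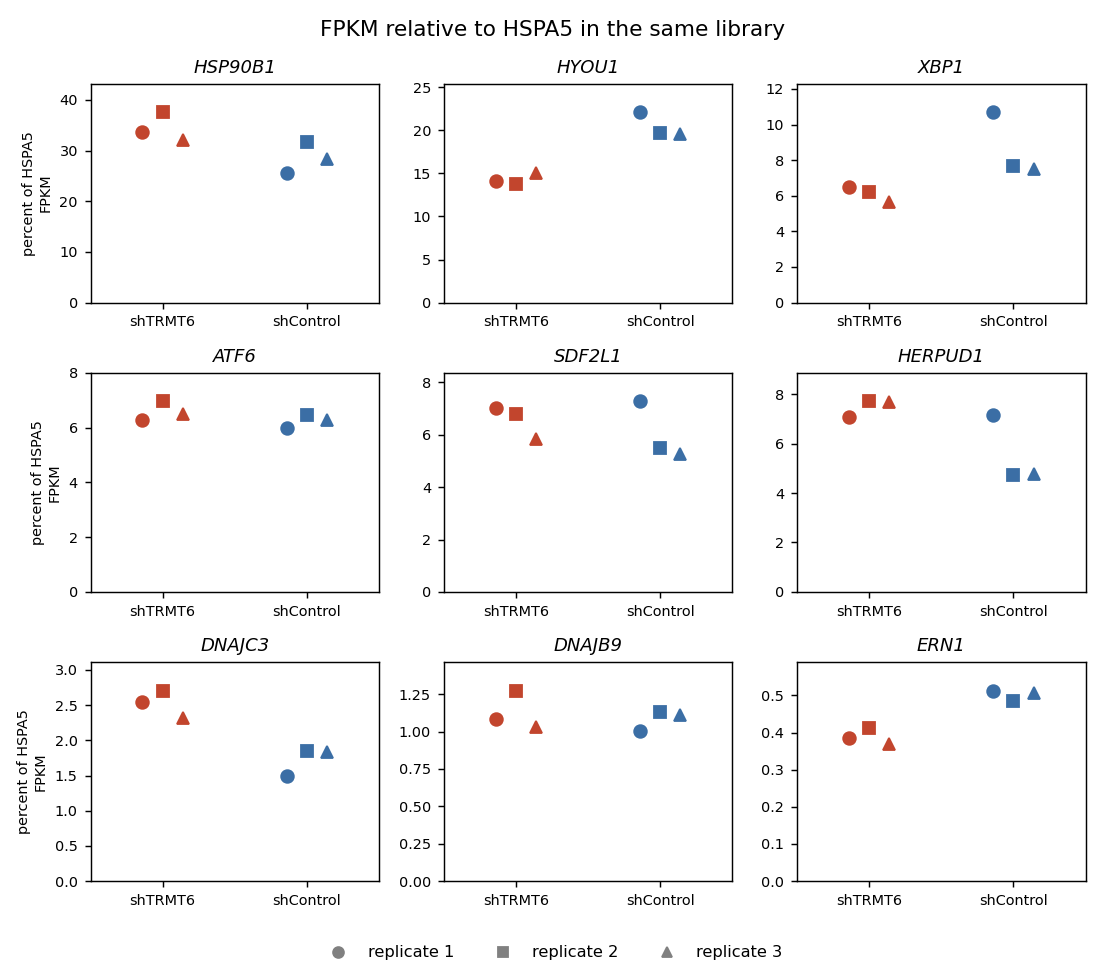
FPKM of each of the other 9 genes as a percent of HSPA5 FPKM in the same library (vertical axes, each from 0) in shTRMT6 (red, left) and shControl (blue, right); marker shapes give the replicate number. HYOU1, XBP1 and ERN1 are lower and HSP90B1 and DNAJC3 higher in every shTRMT6 library, and ATF6 keeps 5.99% to 6.96% throughout.

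Sequence elements through which ATF6 and XBP1 are known to act were looked for in the promoters, because genes known as targets of the same response moved in both directions. RefSeq promoters on GRCh38.p14, 250 bases before to 50 bases after each start site, were found for all 10 genes (11 windows, since XBP1 has 2). The searched elements, on both strands, were the ER stress response element ERSE (CCAAT, 9 bases of any kind, CCACG), ERSE-II (ATTGG, any base, CCACG) and the unfolded protein response element UPRE (TGACGTGG). Of the 10 genes, 6 hold an ERSE or ERSE-II: HSPA5, HSP90B1 and XBP1 an ERSE, and HERPUD1, HYOU1 and SDF2L1 an ERSE-II. Among all 35116 promoters, 27 (0.0769%) hold an ERSE and 19 (0.0541%) an ERSE-II. Those shares count promoter windows and not genes. The 10 genes were chosen as members of the ER stress response, so their larger share could be foreseen from that choice and is no separate result. A UPRE is in 0.729% of promoters and, among the 10, only in HYOU1, where it overlaps the distal ERSE-II.

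The matches of the members that rose or fell and of HSPA5 are printed with 20 bases on either side, 5′ to 3′ on the strand of the gene, with the element in capitals. HYOU1 carries 2 copies in the reverse orientation, of which the one nearer the start is shown.
HERPUD1 ERSE-II, chr16:56932005-56932055: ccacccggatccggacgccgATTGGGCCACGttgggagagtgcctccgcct
HYOU1 ERSE-II, chr11:119057254-119057304: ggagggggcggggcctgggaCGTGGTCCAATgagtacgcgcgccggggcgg
XBP1 ERSE, chr22:28800583-28800641: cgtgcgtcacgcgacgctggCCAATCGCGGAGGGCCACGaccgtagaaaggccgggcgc
HSPA5 ERSE, chr9:125241371-125241429: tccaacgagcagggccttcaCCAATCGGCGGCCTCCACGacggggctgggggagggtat

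HERPUD1, which rose, and HYOU1, which fell, thus hold the same element (ERSE-II), and XBP1, which fell, holds the same element (ERSE) as HSPA5, which did not pass. DNAJC3, which rose, has none of the 3 elements in this window, nor have ATF6, DNAJB9 and ERN1. A match of letters is a description and not a measured binding site.

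**Figure D4:**
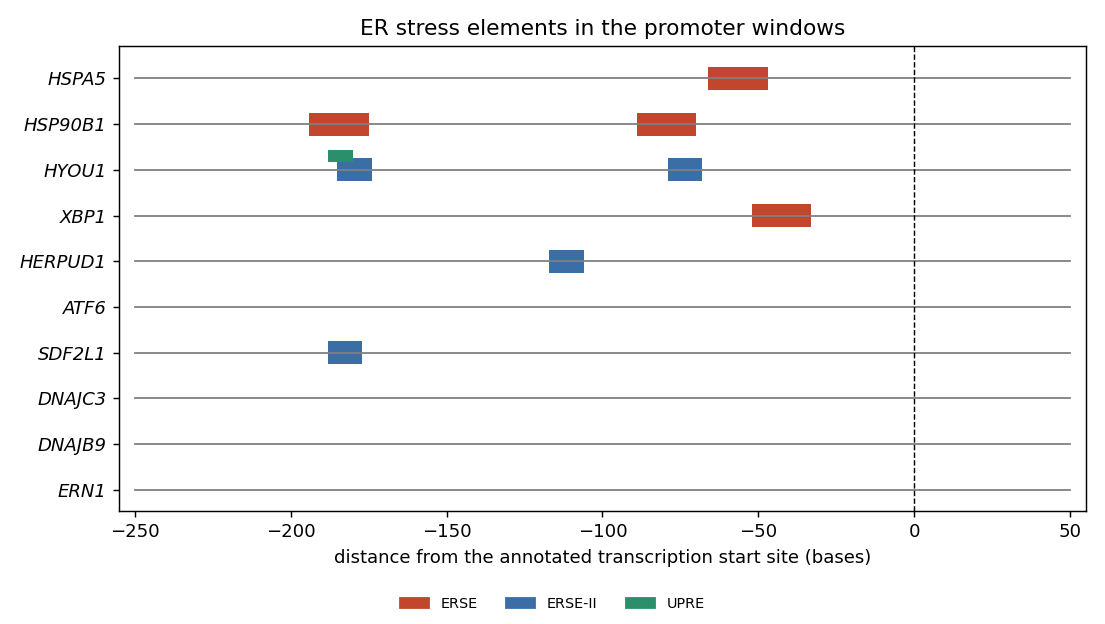
Position of the ERSE (red), ERSE-II (blue) and UPRE (green) matches in the promoter window of each gene (horizontal axis: bases from the RefSeq start site, dashed line; genes ordered by mean level). The elements of 6 genes start between -194 and -52, and the windows of ATF6, DNAJC3, DNAJB9 and ERN1 hold none.

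The genes whose profile over the 6 libraries was nearest to that of HSPA5 were EDEM1, TNFRSF10D and ERP44. The measure was the root mean square difference of centred log2(FPKM + 1) values, which was 0.022, 0.037 and 0.040. EDEM1, a lectin of ER-associated degradation, read 19.38, 20.11 and 23.39 FPKM in shTRMT6 and 15.93, 20.57 and 23.39 FPKM in shControl. None of the 3 passed the test (limma adjusted p from 0.473 to 0.677), and all were lowest in shControl replicate 1, as was HSPA5. Both traits follow from choosing genes by likeness to HSPA5 over the same libraries, and are no separate result.

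Other genes of the pathway were taken from 8 lists with 164 tested genes. Of these, 22 rose and 27 fell (29.9%, against 35.4% of all genes tested). Among 15 tested further sensors and regulators 1 rose and 3 fell, or 26.7% (median of log2 fold changes -0.098). With the replicate block 2 rose and 5 fell, and without shTRMT6 replicate 3 the number lower was also 5. The proteases that cut ATF6 both fell. MBTPS1, the site-1 protease, averaged 25.4 ± 4.30 FPKM in shTRMT6 and 39.0 ± 5.86 FPKM in shControl (SD, n = 3 each; 1.53-fold lower, limma adjusted p = 0.00409). MBTPS2, the site-2 protease, averaged 3.83 ± 0.185 FPKM in shTRMT6 and 6.13 ± 1.09 FPKM in shControl (SD, n = 3 each; 1.60-fold lower, limma adjusted p = 0.00634). NFYA, a subunit of the factor that binds the CCAAT part of the ERSE, rose 1.51-fold (adjusted p = 0.00219). The other listed subunits, NFYB (log2 fold change 0.18, adjusted p = 0.246) and NFYC (-0.32, adjusted p = 0.0729), did not pass.

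In the PERK and ATF4 arm 2 of 10 tested genes rose and 3 fell, so 50% passed, against 35.4% of all genes tested. The median was -0.039, and the replicate block gave 3 and 3. The 2 that rose became 0 (limma; 1 to 3 at an unadjusted p under 0.05) with no abundance filter, with quantile normalization, and without shTRMT6 replicate 1, shTRMT6 replicate 3 or shControl replicate 2. Without shControl replicate 3, 1 rose. ATF4 itself, the transcription factor translated when PERK is active, fell 1.59-fold, with 145 ± 4.13 FPKM in shTRMT6 and 230 ± 5.96 FPKM in shControl (SD, n = 3 each; limma adjusted p = 0.000141). Its target CHAC1 read 2.22, 2.22 and 1.82 FPKM in shTRMT6, against 7.58, 4.40 and 2.92 FPKM in shControl. These are low values, and shControl replicate 1 was far above the rest. The CHAC1 mean was 2.38-fold lower, with a log2 fold change of -0.88 (adjusted p = 0.00722), and DDIT4 rose 1.52-fold (adjusted p = 0.0313). Both calls ended when no abundance filter was used (adjusted p = 0.0657 and 0.14), and that of DDIT4 also with quantile normalization (0.0857) and without any of 4 single libraries (0.0566 to 0.125); the DDIT4 groups overlapped. DDIT3 (CHOP) had a log2 fold change of 0.29 (adjusted p = 0.0919; 0.0265 with the replicate block).

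Of 40 tested folding enzymes and cochaperones 3 rose and 7 fell (median -0.0062), and with the replicate block 8 rose and 10 fell. The number higher was 1 without shTRMT6 replicate 3 and 8 without shControl replicate 3. ERP29, an ER protein of the disulfide isomerase family, averaged 60.2 ± 7.38 FPKM in shTRMT6 and 100.5 ± 8.75 FPKM in shControl (SD, n = 3 each; 1.67-fold lower, limma adjusted p = 0.000363). FKBP11, a prolyl isomerase, fell 1.54-fold (adjusted p = 0.000794) and CNPY4 1.74-fold (adjusted p = 0.00904). Of 30 tested degradation genes besides HERPUD1, 2 rose and 5 fell (median -0.083), so 23.3% passed, against 35.4% of all genes tested. With the replicate block 5 rose and 8 fell. Quantile normalization gave 5 higher and 4 lower, the GC correction 1 and 7, and that correction with the block 2 and 10. Without shTRMT6 replicate 1, and likewise without replicate 2, 0 rose and 2 fell (limma; 3 higher at an unadjusted p under 0.05), and without replicate 3, 4 rose. UBE2G2, a ubiquitin-conjugating enzyme of ER-associated degradation, averaged 13.0 ± 0.930 FPKM in shTRMT6 and 29.9 ± 1.18 FPKM in shControl (SD, n = 3 each; 2.31-fold lower, limma adjusted p = 1.01e-05). NGLY1, which strips N-glycans from exported proteins, rose 1.40-fold (adjusted p = 0.0259). The NGLY1 call ended after the GC correction (0.075), with no abundance filter (0.0944) and without any of 3 single libraries (0.0774 to 0.115).

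In the ER import list 8 of 25 tested genes rose and 3 fell (median 0.080). The 44% that passed compare with 35.4% of all genes tested (19.3% higher and 16.1% lower). With the replicate block 10 rose and 5 fell, and with median-of-ratios scaling 8 rose and 5 fell. After the GC correction 7 rose and 5 fell, and with the block as well 10 rose and 10 fell. Without shTRMT6 replicate 1, and likewise without replicate 2, 5 rose and 1 fell, and without replicate 3 the number lower was 5. SEC11C, a signal peptidase subunit, averaged 47.4 ± 1.45 FPKM in shTRMT6 and 27.9 ± 4.54 FPKM in shControl (SD, n = 3 each; 1.7-fold higher, limma adjusted p = 0.000458). SRP19, of the signal recognition particle, rose 1.60-fold (adjusted p = 0.000836), and SEC61A2, an alternative translocon subunit, fell 1.84-fold (adjusted p = 0.000812). Of 13 tested genes of the oligosaccharyltransferase and glucosidases 0 rose (limma; 1 at an unadjusted p under 0.05) and 3 fell (median 0.0073). The share passing was 23.1%, against 35.4% of all genes tested. With the replicate block 1 rose and 5 fell, without shControl replicate 3 the number higher was 1, and without shTRMT6 replicate 2 the number lower was 1. The 3 that fell were the glucosidase MOGS, the glucosidase subunit PRKCSH and the transferase subunit STT3A, 1.33-fold, 1.29-fold and 1.26-fold lower. Without shTRMT6 replicate 1 none of the 3 passed (adjusted p = 0.0608, 0.0834 and 0.144). After the GC correction MOGS and PRKCSH did not pass (0.0628 and 0.0858), and the STT3A groups overlapped.

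Of 21 tested genes of COPII export and KDEL retrieval 2 rose and 3 fell (median 0.16). The share passing was 23.8%, against 35.4% of all genes tested. With the replicate block 5 rose and 4 fell. Without shTRMT6 replicate 1 or 2 the number higher was 1. The COPII coat subunit SEC23A rose 1.52-fold (adjusted p = 0.00262), and the scaffold of ER exit sites SEC16A fell 1.44-fold (adjusted p = 0.0035). HSPA5 and HSP90B1 carry the KDEL signal by which the KDEL receptors return them to the ER. KDELR2 averaged 67.8 ± 6.50 FPKM in shTRMT6 and 92.8 ± 12.1 FPKM in shControl (SD, n = 3 each; limma adjusted p = 0.00816). KDELR1 averaged 229.8 ± 31.0 FPKM in shTRMT6 and 291.9 ± 23.5 FPKM in shControl (SD, n = 3 each; limma adjusted p = 0.0241), a call that ended after the GC correction (0.0725), with no abundance filter (0.0734) and without any of 4 single libraries (0.0531 to 0.123). KDELR3 averaged 24.3 ± 1.35 FPKM in shTRMT6 and 20.9 ± 2.03 FPKM in shControl (SD, n = 3 each), and did not pass (limma adjusted p = 0.138).

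Of 10 tested relatives of HSPA5 and HSP90B1 outside the ER, 4 rose and 0 fell (limma, with 0 lower also at an unadjusted p under 0.05). The median was 0.13, and the 40% that passed compare with 35.4% of all genes tested (19.3% higher and 16.1% lower). After the GC correction 5 rose and 1 fell. HSP90AA1, the inducible cytosolic HSP90, read 430.75, 518.25 and 374.83 FPKM in shTRMT6, against 176.06, 266.97 and 226.59 FPKM in shControl (1.98-fold, log2 fold change 0.99, SE 0.15, adjusted p = 0.000369). HSPA4L and HSPA4, cytosolic exchange factors of the HSP110 family like HYOU1, rose 2.50-fold (adjusted p = 4.95e-05) and 1.57-fold (adjusted p = 0.000814). Whether the cytosolic genes differ from the ER genes in their response was not tested.

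**Figure D5:**
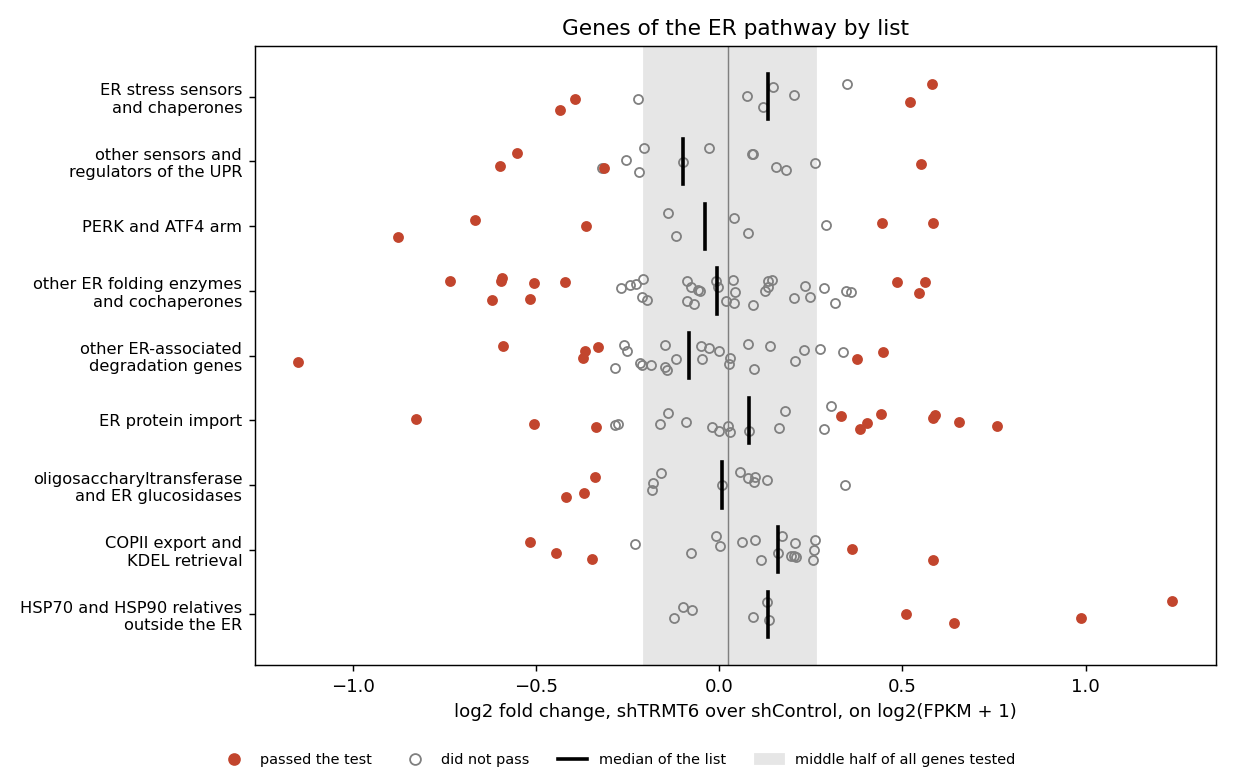
Log2 fold change of shTRMT6 over shControl (horizontal axis) for each tested gene of the 9 lists, with genes that passed the test in red and a black bar at the median of each list; the grey band spans the quartiles of all genes tested, -0.21 to 0.26. All 9 medians, from -0.098 to 0.16, lie inside that band.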

How the data were processed

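Libraries were made with a NEBNext Ultra kit from mRNA enriched out of TRIzol-extracted RNA, per the labels' protocols. The authors deposited a single table of FPKM values for genes, per the file headers. RSEM, HISAT2, StringTie 1.3.1, fastp 0.18.0 and Bowtie2 2.2.8 are listed, with no role, per the submitters' processing notes. Genome build, annotation and strand setting are not given in the sources used here. Columns were matched to samples by group and replicate number. No label calls the replicates separate cultures, so the spread behind each p-value may be technical only.

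Of the identifiers, 20257 took their symbol from a gene name table and 30 from GENCODE release 29; coordinates, GC content and exon overlaps came from GENCODE release 29. The test was limma 3.58.1 in R 4.3.3, with a trend in the prior, on log2(FPKM + 1) of genes averaging 1 FPKM or more. Fold changes on that scale understate the change of low genes. In simulated data for this comparison (10592 genes) the test recovered 92 of 100 genes changed 2-fold and 55 of 100 changed 1.5-fold, and called 5 unchanged genes. Those changes were added on the log2(FPKM + 1) scale, with noise independent between libraries. Far fewer genes changed there than were called here, and no GC trend or pairing was simulated. The rates may therefore not carry over to these data. The members and lists were chosen with earlier results of these data known.

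Named genes were TRMT6, the 10 members, up to 3 genes with the largest absolute log2 fold change past the threshold from each other list, the 3 genes nearest to HSPA5, and 6 fixed genes (KDELR1, KDELR2, KDELR3, EIF2AK3, ATF4 and DDIT3). One gene that this rule names is not reported here. Deviations from the group means correlated at 0.21, 0.36 and 0.17 between libraries of the same number and from -0.29 to 0.094 otherwise, so the numbers were taken as pairs in an alternative fit. Deviations cancel within each group, so the lower correlations between unlike numbers are partly forced. No label calls libraries of the same number pairs. The GC correction removed a lowess trend (span 0.3) of each library. Further alternatives used a pseudocount of 0.1 or 0.5, no filter or a minimum of 5 FPKM, quantile or median-of-ratios scaling, other priors, and leaving out each library.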

Additional observations from a re-analysis of the deposited data

How the results depend on the processing

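For genes passing the test, the count ran from 2407 (without shTRMT6 replicate 2; 2465 without its replicate 1) to 3618 when single libraries were left out, against 3746 in all 6, and was 4954 with the replicate block. The count over all genes was 2941 with no abundance filter, where more genes were tested. It was 4147 with the GC correction and 5268 with the GC correction and the block. Of the 10 members, 2 passed with no abundance filter (1 higher and 1 lower). With the replicate block, alone or with the GC correction, 4 were higher, and with the GC correction alone 1 was lower. Leaving out single libraries gave 1 to 2 lower members, the 1 without shTRMT6 replicate 1 or 2. Signs turned for genes that never passed. HSPA5 was -0.063 with quantile normalization, -0.016 with the GC correction (with or without the block) and -0.058 to 0.19 with single libraries left out. DNAJB9 was -0.11 with the GC correction and -0.044 to 0.23 without single libraries, and ATF6 -0.070 and -0.014 to 0.26. EDEM1 was -0.036 and -0.067 to 0.20, ERP44 -0.12 and -0.0026 to 0.23, and EIF2AK3 -0.049 and -0.062 to 0.25. The cause was not tested. Over the 42 named genes, 644 of 709 values kept direction and side of the threshold. The replicate block changed the call of HSP90B1, SDF2L1 and DDIT3 and of no other named gene. Depth is known only as a rough estimate, so no counting error is given.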

Other observations

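The ERSE and ERSE-II elements of the 10 genes also mark other genes. Of 44 genes with either element in a RefSeq promoter window, 28 were tested, 6 of them members. Of the other 22, 4 rose and 4 fell (median of log2 fold changes -0.040). Those shares are close to those of all genes tested, of which 19.3% rose and 16.1% fell. They included the lectin chaperones CALR and CANX, the disulfide isomerase PDIA6 and the secreted ER protein CRELD2, none of which passed. CALR averaged 1142 FPKM in shTRMT6 and 1316 FPKM in shControl (log2 fold change -0.21, limma adjusted p = 0.163), and CANX 312.1 FPKM in shTRMT6 and 332.8 FPKM in shControl (-0.068, adjusted p = 0.742). The genes that moved were EIF2A, TRIM5, ZNF143 and ZNF17, which rose, and NUCB1, RAD9A, TMEM120A and NAV2, which fell. NUCB1, a calcium-binding Golgi protein that restrains the cleavage of ATF6, averaged 102.8 FPKM in shTRMT6 and 139.6 FPKM in shControl (-0.45, adjusted p = 0.014). This group was chosen after its values were seen.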
